A study of Mus musculus with 5 samples.

Results

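The genes described here are 10 members of the circadian clock and its direct output, Dbp, Tef, Per1, Per2, Per3, Nr1d1, Nr1d2, Ciart, Arntl and Clock, of 31053 genes counted. They were chosen by symbol because their levels had been seen to differ between libraries in every cell class, so each difference of a member between libraries is given below as a description, without a test. The data were single-cell RNA-seq counts from the lungs of adult C57BL/6 mice after intratracheal LPS, the bacterial product used to injure the lung, or PBS. There were 5 libraries, 1 for each condition: LPS-treated β1 fl/fl at day 7, PBS-treated β1 AT2-KO at day 7, LPS-treated β1 AT2-KO at day 7, and LPS-treated β1 fl/fl and β1 AT2-KO at day 21. β1 AT2-KO mice carried SP-C rtTA, TetO-Cre and Itgb1 fl/fl and lost β1 integrin in type 2 alveolar epithelial (AT2) cells, the surfactant-making cells of the alveolus, after doxycycline. The β1 fl/fl controls were Itgb1 fl/fl littermates negative for both rtTA and TetO-Cre that also received doxycycline. The SP-C promoter drives the deletion in AT2 cells, so endothelial and mesenchymal cells of both genotypes kept Itgb1. Cells were sorted as viable, CD45-negative and Ter119-negative, and the day 21 libraries were also enriched for EPCAM-positive cells.

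Each library pooled mice and had 3 antibody hashtags in use. Each hashtag was taken as 1 mouse, although the labels do not give the number of animals behind a hashtag. The paper pooled 3 or more mice for each condition, so a hashtag may hold more than 1 animal. Counts of mice below are counts of hashtags. The mice of 1 condition share a library, so condition and library cannot be told apart. The hour of harvest is not given in the sources used here. After filtering, a library held 2224 to 8671 cells and 8.36095e+06 to 2.91283e+07 UMIs, counts of distinct RNA molecules, with a median of 2219 to 5330 UMIs in a cell, and 50.3% to 78.7% of its cells carried a single hashtag. Cells were assigned to 3 gates by a few genes: AT2 (119, 26, 355, 176 and 1240 cells in the library order above), endothelial (6508, 7976, 4777, 1187 and 879 cells) and mesenchymal (395, 103, 553, 331 and 165 cells). All 8 markers listed for each class were detected in its own gate. In the AT2 gate Itgb1 stood at 279 UMIs per 1000000 UMIs (CPM) in β1 fl/fl and 167 CPM in LPS-treated β1 AT2-KO mice at day 7, and at 351 and 152 CPM at day 21. Transcripts of the surfactant gene Sftpc outside AT2 cells, which measure free RNA carried between droplets, reached 0.298% to 7.46% of their AT2 level in the endothelial gate, lowest in the PBS library and highest in the β1 AT2-KO library at day 21. Cell barcodes shared by a pair of libraries numbered 15 to 102. The LPS-treated mice at day 7 also differed in sex by genotype: the β1 fl/fl mice had 291 to 317 CPM of Xist over all their cells and no Y-linked UMI, and the β1 AT2-KO mice had 147 to 157 CPM of Y-linked genes and at most 0.299 CPM of Xist. The PBS-treated β1 AT2-KO library was mixed, with Xist at 199 CPM and Y-linked genes at 5.92 CPM in mouse 1, and Y-linked genes at 136 and 147 CPM in mice 2 and 3; mouse 1 was the one of the 3 with the least Dbp, Tef and Nr1d1 and the most Arntl in the endothelial gate. The part of sex in the differences below was not tested.

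The circadian clock is a transcriptional feedback loop that runs in nearly every cell. CLOCK and BMAL1, the product of Arntl, bind E-box elements and activate the Per genes, Nr1d1, Nr1d2, Ciart, Dbp and Tef. The PER proteins and CIART feed back on CLOCK and BMAL1, the nuclear receptors encoded by Nr1d1 and Nr1d2 (REV-ERBα and REV-ERBβ) repress Arntl, and the PAR bZIP factors DBP and TEF act on D-box elements of output genes. Arntl therefore cycles out of phase with Dbp and Nr1d1, and Clock cycles little in most tissues.

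Stretches with matches to these elements are shown because the loop acts on its members through elements of this kind. Whether the matches are bound was not tested. In the 300-base windows from 250 bases before to 50 bases after the RefSeq start sites (GRCm38.p6), which were given for 9 of the 10 members, the E-box CACGTG was found in Ciart, Per1 and Tef, its variant CACGTT in Nr1d1, the D-box TTATGNAA in Per3 and Per1, and the ROR half-site TAGGTCA, bound by the receptors that NR1D1 and NR1D2 compete with, in Arntl. Both strands were searched. The windows of Dbp, Nr1d2 and Clock held none of these letters. Of all 32851 promoter windows, 7.15% held CACGTG, 4.68% CACGTT, 3.38% TTATGNAA and 2.61% TAGGTCA. Capitals mark the match in each sequence, read in the direction of the gene, and the Nr1d1 match is CACGTT on the other strand. The stretches lie upstream of the start site: Ciart at chr3:95882259-95882358 (minus strand), Per1 at chr11:69098769-69098818 (plus strand), Tef at chr15:81811258-81811297 (plus strand), Per3 at chr4:151044806-151044885 (minus strand) and Nr1d1 at chr11:98775388-98775422 (minus strand).
Ciart: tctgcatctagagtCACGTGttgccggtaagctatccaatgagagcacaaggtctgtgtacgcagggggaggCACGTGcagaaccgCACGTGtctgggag
Per1: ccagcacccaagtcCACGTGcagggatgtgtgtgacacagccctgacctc
Tef: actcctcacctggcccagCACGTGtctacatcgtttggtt
Per3: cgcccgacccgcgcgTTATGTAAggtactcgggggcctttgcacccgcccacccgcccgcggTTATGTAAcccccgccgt
Nr1d1: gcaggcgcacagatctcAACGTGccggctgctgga

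The output factors Dbp and Tef were higher in LPS-treated β1 AT2-KO than in β1 fl/fl mice at day 7. In the endothelial gate, the gate with most cells, Dbp (chr7:45705088-45710203, GRCm38) was at 9.38, 9.30 and 9.31 CPM in mice 1, 2 and 3 of the β1 fl/fl library, at 16.2, 47.0 and 43.6 CPM in the PBS-treated β1 AT2-KO mice and at 52.5, 162 and 62.6 CPM in the LPS-treated β1 AT2-KO mice. The 3 β1 fl/fl mice were nearly alike, every β1 AT2-KO mouse was above them, and mouse 2 of the LPS-treated β1 AT2-KO library was the highest of all. Over all endothelial cells of a library, with or without a hashtag, Dbp was 10.6-fold higher in LPS-treated β1 AT2-KO than in β1 fl/fl cells, a log2 ratio of 3.40 with a 95% interval of 3.17 to 3.65 that covers counting error only. Tef read 19.4, 18.2 and 13.5 CPM in the β1 fl/fl mice, 25.2, 42.1 and 37.3 CPM in the PBS-treated mice and 45.8, 80.9 and 42.5 CPM in the LPS-treated β1 AT2-KO mice. The 3 groups of mice did not overlap for Tef, and the library ratio of LPS-treated β1 AT2-KO to β1 fl/fl was 3.33-fold.

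The REV-ERB genes differed in the same direction, Nr1d1 with another order of the libraries than Dbp and Nr1d2 with the same order. Nr1d1 read 25.4, 19.4 and 14.7 CPM in the endothelial gate of the β1 fl/fl mice, 48.2, 77.9 and 36.8 CPM in the LPS-treated β1 AT2-KO mice and 50.4, 108 and 105 CPM in the PBS-treated mice. Both β1 AT2-KO groups lay above the β1 fl/fl mice, and PBS-treated mice 2 and 3 were the highest. The library ratio of LPS-treated β1 AT2-KO to β1 fl/fl was 2.87-fold for Nr1d1 and 2.22-fold for Nr1d2. Nr1d2 read 31.7, 29.9 and 31.9 CPM in the β1 fl/fl mice, 42.7, 61.2 and 58.6 CPM in the PBS-treated mice and 64.6, 93.1 and 58.5 CPM in the LPS-treated β1 AT2-KO mice. Both β1 AT2-KO groups were above the β1 fl/fl mice, and they overlapped with each other.

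The negative limb of the loop was mixed. Per3 read 7.39, 5.66 and 7.45 CPM in the endothelial gate of the β1 fl/fl mice and 17.9, 40.6 and 14.7 CPM in the LPS-treated β1 AT2-KO mice, a library ratio of 3.34-fold without overlap. Per1, which is also an immediate early gene, read 115, 92.2 and 94.4 CPM against 107, 133 and 85.5 CPM, and the mice overlapped. Per2 (6.19, 5.05 and 1.86 against 5.09, 16.0 and 6.26 CPM) and Ciart (11.6 to 13.9 against 13.9 to 32.0 CPM), a repressor of CLOCK and BMAL1, overlapped as well, Ciart by a small margin. The library log2 ratios were 0.17 for Per1, 1.05 for Per2 and 0.92 for Ciart.

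The positive limb did not follow the output genes. Arntl (chr7:113207465-113314126, GRCm38) read 20.6, 19.2 and 23.8 CPM in the endothelial gate of the β1 fl/fl mice, 14.1, 9.68 and 12.3 CPM in the PBS-treated β1 AT2-KO mice and 15.5, 3.55 and 8.98 CPM in the LPS-treated β1 AT2-KO mice. Both β1 AT2-KO groups were below every β1 fl/fl mouse, and the mouse with the most Dbp had the least Arntl. The library log2 ratio of LPS-treated β1 AT2-KO to β1 fl/fl was -1.15 (95% counting interval -1.45 to -0.87). Clock, the partner of BMAL1, read 73.3, 69.1 and 67.3 CPM against 66.7, 62.6 and 61.3 CPM; these mice did not overlap either, but the log2 ratio was only -0.09.

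**Figure D1:**
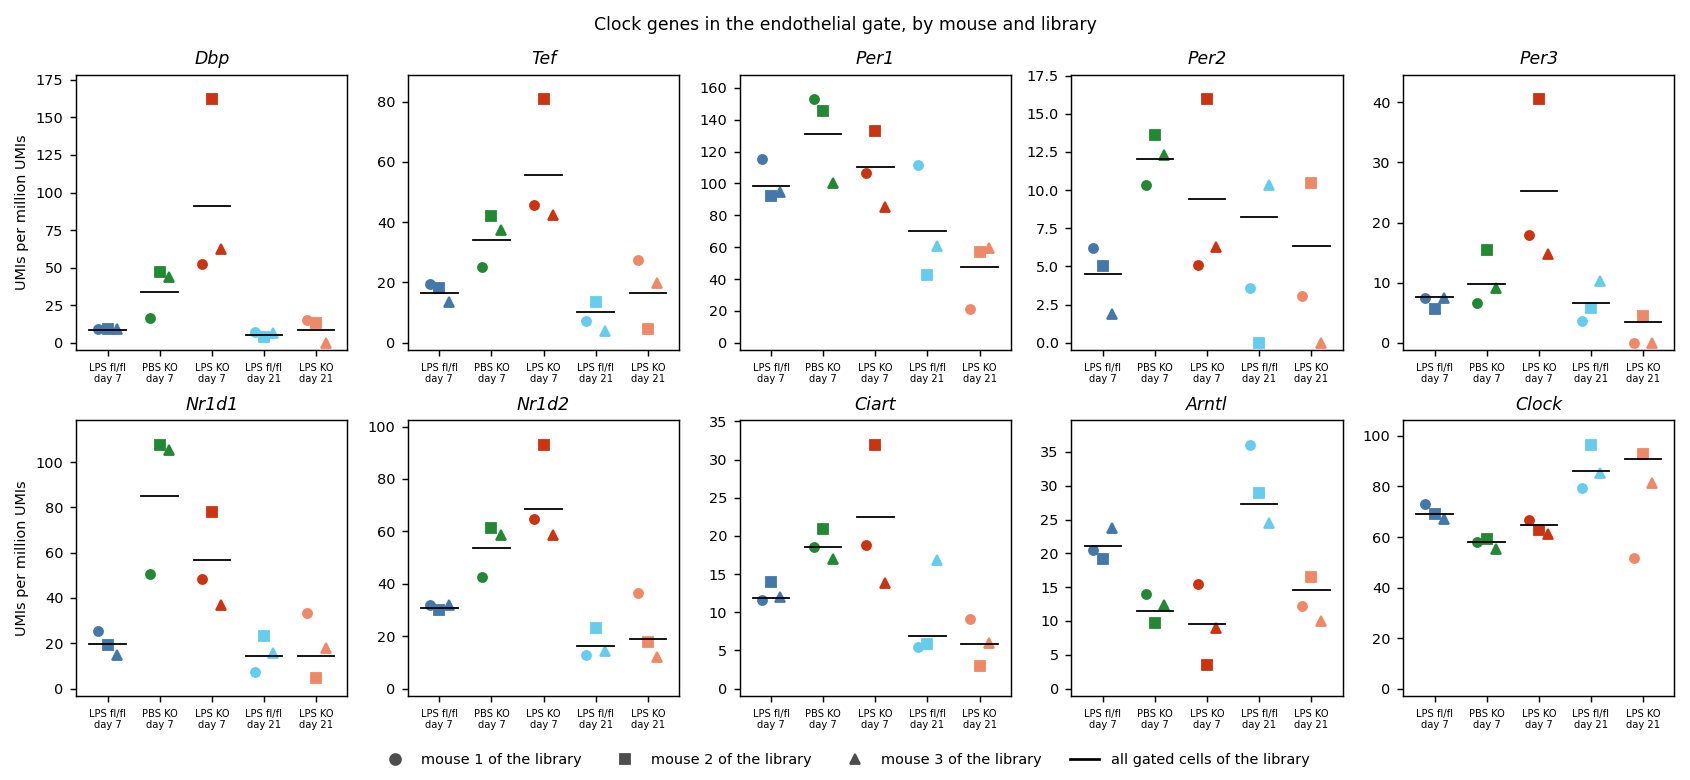
Level of the 10 genes in the endothelial gate of each mouse, in UMIs per 1000000 UMIs (linear axes), by library; each symbol is 1 mouse and each line the level over all gated cells of the library. Dbp lies at 9.30 to 9.38 in the LPS-treated β1 fl/fl mice and at 52.5 to 162 in the LPS-treated β1 AT2-KO mice at day 7, and Arntl lies the other way.

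In all, 5 of the 10 genes (Dbp, Tef, Per3, Nr1d1 and Nr1d2) were higher in all 3 LPS-treated β1 AT2-KO mice than in all 3 β1 fl/fl mice in the endothelial gate at day 7, and 2 (Arntl and Clock) were lower in all of them. Of 11668 genes, 12.7% were without overlap in the first direction and 9.24% in the second. The genes were chosen for this contrast, so nothing is read from the counts. The median log2 ratio of the 8 members other than Arntl and Clock was 1.34, and that of all genes 0.03.

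Mouse 2 of the LPS-treated β1 AT2-KO library at day 7 weighed on these values. A mouse can be left out only among cells with a single hashtag, so the values with and without it are given over those cells, with 1 CPM added. There the endothelial log2 ratio of Dbp was 3.20, and 2.50 without that mouse. The ratio of Tef went from 1.68 to 1.32, that of Arntl from -1.11 to -0.74, and that of Per1 from 0.11 to -0.07. Per2 went from 0.93 to 0.31, Ciart from 0.75 to 0.36 and Per3 from 1.72 to 1.15. Nr1d1 went from 1.42 to 1.06 and Nr1d2 from 1.19 to 0.96. The median of the 8 members went from 1.31 to 1.01.

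At day 7 Dbp was higher and Arntl lower in the LPS-treated β1 AT2-KO library in the other gates too, while the other members followed in part. In the mesenchymal gate Dbp read 24.7, 0 and 10.1 CPM in the β1 fl/fl mice and 41.8, 179 and 43.6 CPM in the LPS-treated β1 AT2-KO mice, without overlap. In the AT2 gate Dbp read 9.84 and 24.7 CPM in β1 fl/fl mice 1 and 2, the 2 with at least 20 such cells, and 41.5, 107 and 38.7 CPM in the β1 AT2-KO mice. Mouse 2 of the β1 AT2-KO library was the highest in the endothelial, AT2 and mesenchymal gates and in the cells outside them, where the 3 mice read 52.1, 138 and 48.3 CPM. The library log2 ratios of Dbp were 2.83 in the AT2 gate, 2.75 in the mesenchymal gate and 2.10 outside the gates.

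Arntl was lower in the same 3 places, with log2 ratios of -1.38 (AT2), -1.28 (mesenchymal) and -0.86 (outside the gates). Per mouse it read 19.7 and 30.9 against 14.8, 9.52 and 3.87 CPM in the AT2 gate, which did not overlap. In the mesenchymal gate it read 29.6, 44.6 and 48.1 against 41.8, 6.61 and 12.1 CPM, which overlapped through mouse 1 of the β1 AT2-KO library.

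Of the 8 members other than Arntl and Clock, 7 were higher in the LPS-treated β1 AT2-KO library in the AT2 gate, with a median log2 ratio of 1.13. In the mesenchymal gate 7 of 8 were higher (median 1.17), and outside the gates 8 of 8 (median 1.01). The medians of all genes there were 0.09, -0.06 and -0.01, with 58.6%, 43.1% and 48.0% of genes higher. The AT2 median moved with both the cells and the mice used. On the scale with 1 CPM added it was 1.11 over all AT2 cells, 0.69 over those with a single hashtag, and 0.11 over the latter without mouse 2 of the LPS-treated β1 AT2-KO library. In the same order Tef had 1.11, 0.39 and 0.22, Nr1d2 0.72, 0.33 and -0.0065, Per2 1.12, 0.60 and -0.33, and Nr1d1 -0.26, -0.60 and -1.24. Dbp had 2.78, 2.36 and 1.499 in the AT2 gate. In the mesenchymal gate the median was 1.11 over cells with a single hashtag and 0.64 without that mouse, and Dbp was 2.76 and 1.98.

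The exception among the REV-ERB genes was the AT2 gate. Nr1d1 read 157 and 130 CPM in β1 fl/fl AT2 cells and 56.4, 136 and 67.7 CPM in LPS-treated β1 AT2-KO AT2 cells, and the mice overlapped. Its library log2 ratio was -0.26 in the AT2 gate but 1.89 in the mesenchymal gate, where the mice read 49.4, 0 and 15.7 against 71.0, 157 and 56.5 CPM. Nr1d2 had a ratio of 0.72 in the AT2 gate and 0.99 in the mesenchymal gate. Without overlap of the mice, 2 genes were higher in the AT2 gate (Dbp and Per3, where 22.6% of all genes were) and 1 was lower (Arntl, where 9.36% were). In the mesenchymal gate 3 genes were higher without overlap (Dbp, Per3 and Nr1d1, where 4.09% were) and 0 were lower (6.97%). These gates had 9 and 6 members past the filter on low counts, and Per3 was below it in the mesenchymal gate.

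**Figure D2:**
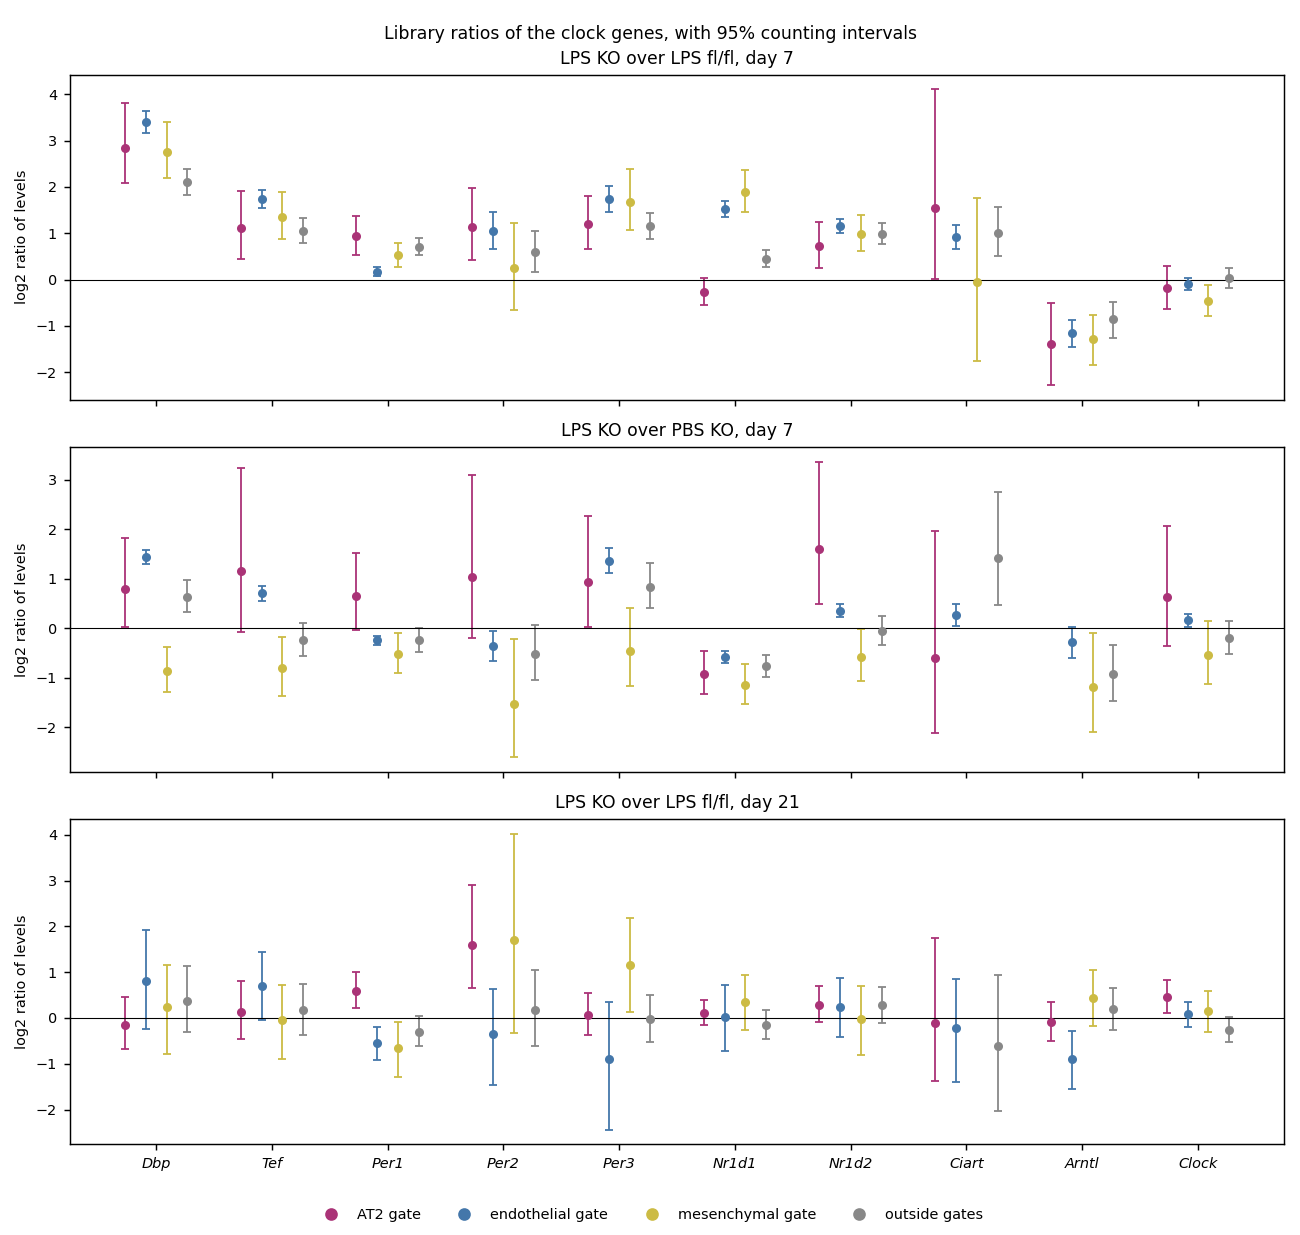
Log2 ratio of library levels for the 10 genes in the AT2, endothelial and mesenchymal gates and in cells outside them, for LPS-treated β1 AT2-KO over β1 fl/fl at day 7, LPS over PBS in β1 AT2-KO at day 7, and β1 AT2-KO over β1 fl/fl at day 21; bars are 95% counting intervals, and ratios with under 3 UMIs in a library are not drawn. At day 7 Dbp lies at 3.40, 2.83, 2.75 and 2.10 in the endothelial, AT2, mesenchymal and other cells and Arntl below 0 in all 4, and at day 21 the intervals of Dbp reach across 0 in all 4.

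Because Dbp and Arntl went in opposite directions, their ratio within a mouse gives a reading that no scaling between libraries can alter. It compares mice and not the levels of the 2 genes. In the endothelial gate there were 0.456, 0.484 and 0.391 Dbp UMIs for each Arntl UMI in the β1 fl/fl mice at day 7, 1.15, 4.86 and 3.54 in the PBS-treated β1 AT2-KO mice, and 3.38, 45.7 and 6.97 in the LPS-treated β1 AT2-KO mice. Every β1 AT2-KO mouse at day 7 was above every β1 fl/fl mouse, and the spread among β1 AT2-KO mice was far wider than among the β1 fl/fl mice. In LPS-treated β1 AT2-KO mice the ratio was 2.80, 11.25 and 10.0 in AT2 cells, from 5, 8 and 2 Arntl UMIs. In their mesenchymal cells it was 1.00, 27.0 and 3.60, from 10, 3 and 15 Arntl UMIs. Mouse 1 was the lowest in both gates and mouse 2 the highest in mesenchymal cells. The counts are too few to rank mice 2 and 3 in AT2 cells. The β1 fl/fl mice at day 7 had 0.5 and 0.8 in AT2 cells, from 10 and 5 Arntl UMIs. In mesenchymal cells they had 0.833, 0 and 0.209, from 6, 12 and 43 Arntl UMIs. At day 21 the endothelial ratio was 0.200, 0.133 and 0.263 in β1 fl/fl mice and 1.25, 0.818 and 0 in β1 AT2-KO mice. These groups overlapped through β1 AT2-KO mouse 3, with 0 Dbp and 5 Arntl UMIs. The other β1 AT2-KO mice had 5 and 4 UMIs and 9 and 11 UMIs, and the β1 fl/fl mice had 4, 2 and 5 Dbp UMIs.

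**Figure D3:**
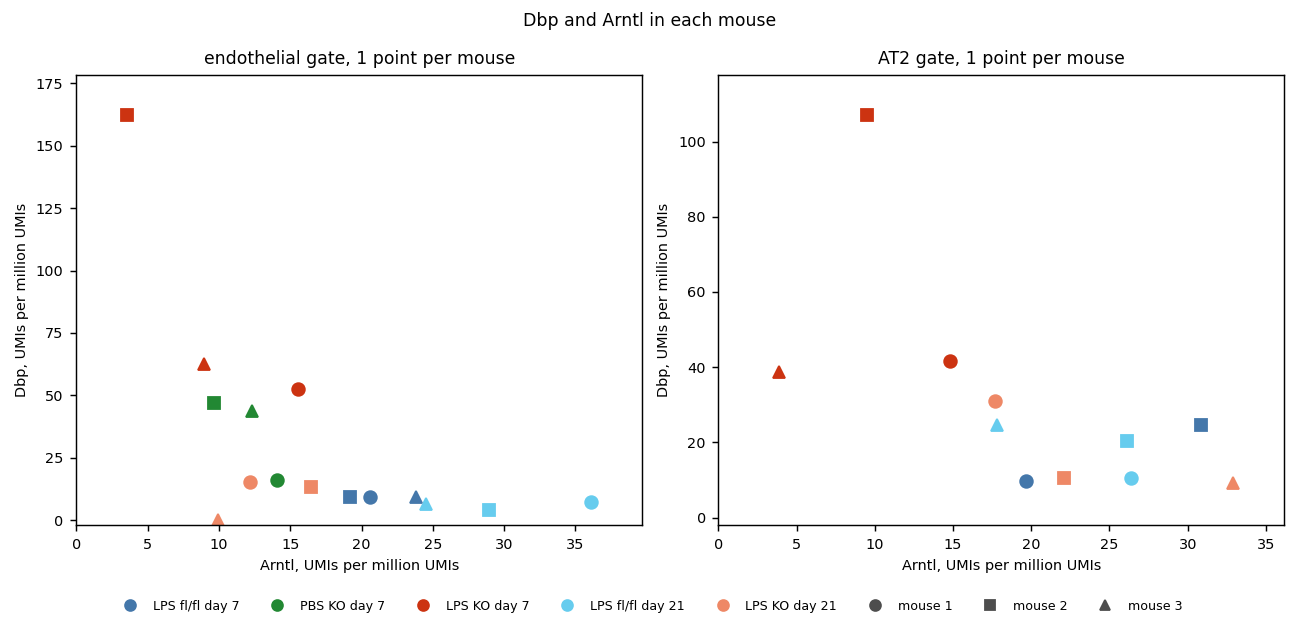
Dbp (vertical) against Arntl (horizontal) in UMIs per 1000000 UMIs, 1 symbol for each mouse with at least 20 cells, in the endothelial and AT2 gates, coloured by library. The 3 LPS-treated β1 fl/fl mice at day 7 sit together at 9.30 to 9.38 Dbp in the endothelial panel, and mouse 2 of the LPS-treated β1 AT2-KO library is at 162 Dbp and 3.55 Arntl.

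The LPS and PBS libraries of β1 AT2-KO mice at day 7 did not differ in 1 direction. This comparison shares the LPS-treated β1 AT2-KO library with the comparison of genotypes. In the endothelial gate Dbp was 2.71-fold higher after LPS (log2 ratio 1.44) and Per3 had a log2 ratio of 1.36, whereas Nr1d1 had -0.58, Per2 -0.36 and Arntl -0.28. Dbp, Tef and Clock were higher in every LPS-treated than in every PBS-treated mouse, as were 29.7% of all genes, and no member was lower in every one (13.3% of all genes). The median of the 8 members was 0.31. Over cells with a single hashtag, with 1 CPM added, the median went from 0.32 to 0.0046 without mouse 2 of the LPS library, Dbp from 1.43 to 0.73, Per3 from 1.21 to 0.64, Per2 from -0.34 to -0.96, and Arntl turned from -0.36 to 0.01.

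In mesenchymal cells the order of these libraries was the other way: the PBS library stood at 145 CPM of Dbp (50 UMIs, 95% interval 107 to 191), 194 CPM of Nr1d1 and 107 CPM of Nr1d2, and the LPS library at 80.3, 87.9 and 72.3 CPM. None of the 8 members was higher after LPS there, and their median log2 ratio was -0.84 against -0.14 for all genes. Only 103 mesenchymal cells of the PBS library passed, 12 of them with a single hashtag, so no value per mouse was formed. The 8 mesenchymal markers summed to 18801 CPM in this gate in the PBS library and to 37518 CPM in the LPS library. The part of this in the differences was not tested. In AT2 cells of the PBS library, 26 in all, Arntl had no UMI, which allows up to 11.7 CPM, and Dbp had 12 UMIs or 46.7 CPM (95% interval 24.1 to 81.6).

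At day 21 the mice of both genotypes overlapped for most members. Sex differed here as well: Xist stood at 247 and 212 CPM in β1 fl/fl mice 2 and 3, the cells of β1 fl/fl hashtag 1, used here as 1 mouse, carried both Xist (92.5 CPM) and Y-linked RNA (83.2 CPM, 116 UMIs) and may not come from a single animal, β1 AT2-KO mouse 1 had 145 CPM of Xist, and Y-linked genes stood at 77.2 and 106 CPM in β1 AT2-KO mice 2 and 3. Dbp read 7.21, 3.86 and 6.46 CPM in endothelial cells of the β1 fl/fl mice and 15.2, 13.5 and 0 CPM in the β1 AT2-KO mice, and 10.6, 20.3 and 24.6 against 31.0, 10.6 and 9.24 CPM in AT2 cells. The mice overlapped in both gates. The library log2 ratio of Dbp was 0.82 in endothelial cells, where it rested on 15 and 18 UMIs, and -0.15 in AT2 cells, where it rested on 32 and 163.

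Arntl was lower in every β1 AT2-KO endothelial sample at day 21 (36.1, 29.0 and 24.6 against 12.2, 16.4 and 9.95 CPM, log2 ratio -0.89, 95% counting interval -1.56 to -0.29), as were 10.7% of all genes; no member was higher in every one (8.01% of all genes), and only 3 members passed the filter there. In AT2 cells Arntl had a log2 ratio of -0.09. Per2 was higher in every β1 AT2-KO AT2 sample (5.28, 2.90 and 2.74 against 14.6, 10.6 and 13.3 CPM, log2 ratio 1.59), as were 18.4% of all genes, and no member was lower in every one (6.82%). The Per2 ratio rested on only 8 UMIs over all β1 fl/fl AT2 cells, against 142 in β1 AT2-KO (95% counting interval 0.65 to 2.91). The medians of the 8 members were 0.12 in AT2 and -0.10 in endothelial cells, beside 0.12 and -0.02 for all genes. In mesenchymal cells 7 of the 8 had enough UMIs, and their median was 0.24 beside 0.04 for all genes. This last median was -0.52 over cells with a single hashtag, which left 1 β1 AT2-KO mouse and 2 β1 fl/fl mice with at least 20 cells.

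The spread of the members over the 5 libraries describes what they were chosen for and supports nothing further. In the endothelial gate Dbp spanned 3.27 log2 units between its highest and lowest library, wider than 99.6% of genes, and Nr1d1 (2.20), Tef (1.99), Per3 (1.85) and Nr1d2 (1.80) were each wider than at least 97.8%. Clock spanned 0.60, wider than 69.5% of genes, and the median of all genes was 0.45. Dbp spanned 3.16 in the mesenchymal gate and 2.45 in the AT2 gate, and Arntl spanned 2.77 in the AT2 gate, where its lowest library was the PBS library with no UMI.

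The genes with profiles most like Dbp over the 5 libraries in endothelial and mesenchymal cells (10 points, root mean square difference of centred log2 levels) were Nr1d1 (0.55), Tef (0.56) and Nr1d2 (0.63), ahead of Tuba1a (0.71) and Dpm1 (0.72), among 7471 genes with a mean of at least 20 CPM. Cebpd (0.83) and Zfp36 (0.85), neither of them a listed clock gene, were 6th and 7th. Cry2, a clock repressor that is not a member, was 8th with 0.87. Per1 was 17th, and Clock and Arntl were far down, at 4897 and 5890. Per2 (1.01), Per3 (0.67) and Ciart (1.37) had means under 20 CPM and were not ranked. The median difference of all ranked genes was 1.36. Among the genes nearest to Arntl were Abcc1 (0.36), Grk5 (0.38), Ormdl3 (0.38) and Dpp7 (0.39). The points share libraries, and the members were chosen for differences between these libraries. With 20 CPM added in place of 5, 5 of the 8 genes nearest to Dbp and 3 of the 5 nearest to Arntl were on the lists again.

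The share of cells in which a gene was seen moved with its level. With each cell reduced to 1000 UMIs, Dbp was detected in 0.697% of endothelial cells of the β1 fl/fl library at day 7, 2.83% of the PBS-treated β1 AT2-KO library, 8.75% of the LPS-treated β1 AT2-KO library, and 0.423% and 0.569% of the β1 fl/fl and β1 AT2-KO libraries at day 21. Without the reduction the shares were 2.21%, 7.18%, 18.7%, 1.095% and 2.05%. Arntl was detected in 2.15%, 1.23%, 0.928%, 2.62% and 1.48% of the reduced cells in the same order. The median depth of the endothelial cells used was 1993 to 2505 UMIs. No class known to lack these genes was available as a blank, and the carry-over of Sftpc above is the measure of free RNA.

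The differences between cell classes within a mouse were not used to choose the genes and were tested with edgeR's quasi-likelihood test on UMI counts summed per mouse and gate, with the mouse as a block and Benjamini-Hochberg adjustment over all genes. Dbp did not pass between endothelial and mesenchymal cells of the same 6 mice at day 7 (log2 fold -0.02, adjusted p = 0.95). Arntl was lower in endothelial cells, with a log2 fold of -1.05 (SE 0.22, adjusted p = 0.000485), at 15.3 ± 7.66 against 30.5 ± 17.6 CPM (mean ± SD, n = 6 mice) and in 6 of 6 mice. Per3 (-0.62, adjusted p = 0.0316) and Nr1d1 (-0.69, adjusted p = 0.0167) were also called lower, but lost the call without mouse 2 or mouse 3 of the LPS-treated β1 AT2-KO library, and Per3 also without β1 fl/fl mouse 2 and by plain library size in place of TMM scaling (-0.48, adjusted p = 0.0892). Ciart stood at 17.0 ± 7.75 CPM in endothelial and 1.33 ± 1.51 CPM in mesenchymal cells, from 432 and 7 UMIs. It passed the filter on low counts only through the endothelial cells, so these levels are given as a description. With Ciart 4 of 10 members were called, where 53.4% of 12554 genes were, and nothing is read from that count. Without the mouse block Ciart and Arntl alone were called.

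AT2 cells had more Per2, Per3 and Nr1d1 than endothelial cells at day 7. In the same 5 mice, Per2 (1.94, SE 0.33, adjusted p = 1.18e-06), Per3 (1.88, SE 0.23, adjusted p = 4.78e-10) and Nr1d1 (1.91, SE 0.21, adjusted p = 2.25e-11) were higher in AT2 cells in 5 of 5 mice by the same edgeR test. Ciart, which again passed the filter only through the endothelial cells, read 0 to 11.9 CPM in AT2 and 11.6 to 32.0 CPM in endothelial cells of these mice, from 14 and 374 UMIs. With Ciart 4 of 10 members were called, where 59.8% of genes were, and nothing is read from that count. Dbp (0.06), Nr1d2 (0.11), Clock (0.11), Tef (-0.33), Per1 (-0.14) and Arntl (0.73) did not pass.

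The scale matters in this comparison, since 8 AT2 marker genes summed to 253253 to 295625 CPM in the AT2 gate. TMM scaling, used above, moved the median gene by 0.53 log2 units from plain library size, and 43.8% of calls were higher in AT2 cells with it against 23.8% without. By library size, a scaling added after the data had been seen, Per2, Per3 and Nr1d1 were still called higher, but Dbp (-0.46, adjusted p = 0.0271), Nr1d2 (-0.41, adjusted p = 0.0404) and Clock (-0.42, adjusted p = 0.0174) turned to lower in AT2 cells, and Tef and Per1 were called lower as well.

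At day 21, where the AT2 gate had more cells, Nr1d1 (2.80, SE 0.21, adjusted p = 2.22e-12) and Nr1d2 (1.65, SE 0.21, adjusted p = 9.15e-08) were higher in AT2 than in endothelial cells by the same edgeR test, in 6 of 6 mice. These calls held under both scalings and without β1 fl/fl hashtag 1, whose cells carried RNA of both sexes. Per3 had 16 UMIs in endothelial cells, 0 to 10.3 CPM in a mouse, against 235 UMIs in AT2 cells, 14.5 to 35.8 CPM. Dbp had 25 against 148 UMIs, 0 to 15.2 against 9.24 to 31.0 CPM, and was higher in AT2 cells in 5 of 6 mice. Both passed the filter on low counts through the AT2 cells, so these levels are given as a description. Arntl (0.90, adjusted p = 0.00201) and Tef (0.89, adjusted p = 0.0170) were called as well but not by library size (0.25 and 0.26). By library size Clock was called lower (-0.72, adjusted p = 0.000101), and Per1 turned from 0.17 to -0.47 and was called lower (adjusted p = 0.0383). With TMM Tef lost the call without mouse 2 of the β1 AT2-KO or mouse 3 of the β1 fl/fl library. With Per3 and Dbp 6 of the 8 members tested were called, where 67.1% of genes were, and nothing is read from that count. Nr1d2 thus passed at day 21 and not at day 7 under TMM, and the difference between the days was not tested.

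Against mesenchymal cells at day 7, AT2 cells had more Per3 (1.12, adjusted p = 0.00141) and Nr1d1 (0.93, adjusted p = 0.0216) and less Per1 (-0.56, adjusted p = 0.0125), 3 of the 8 members tested by edgeR, where 54.1% of genes were called. By library size Nr1d2 was called lower in AT2 cells (-0.79, adjusted p = 0.0024; -0.41 by TMM). Nr1d1 lost the call by library size (0.55, adjusted p = 0.164) and without β1 fl/fl mouse 1, Per1 lost it without mouse 3 of the LPS-treated β1 AT2-KO library, and Per3 alone was called without the mouse block. At day 21 Nr1d1 had 230 UMIs in AT2 and 9 in mesenchymal cells of 3 mice, 50.1 to 78.0 against 14.9 to 30.7 CPM. It passed the filter through the AT2 cells, so these levels are given as a description. Over all gated cells of the day 21 libraries it stood at 69.4 (β1 fl/fl) and 75.3 CPM (β1 AT2-KO) in AT2 cells and at 50.8 and 64.4 CPM in mesenchymal cells, from 69 and 39 UMIs in the latter. With Nr1d1, edgeR called 1 of 4 members, where 45.7% of genes were called, and nothing is read from that count. By library size Per1 (-0.94) and Clock (-1.01) were called lower in AT2 cells. Between endothelial and mesenchymal cells at day 21 edgeR called 0 of 5 members in 3 mice (1 at an unadjusted p under 0.05 and 0 with DESeq2), where 33.1% of genes were called.

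**Figure D4:**
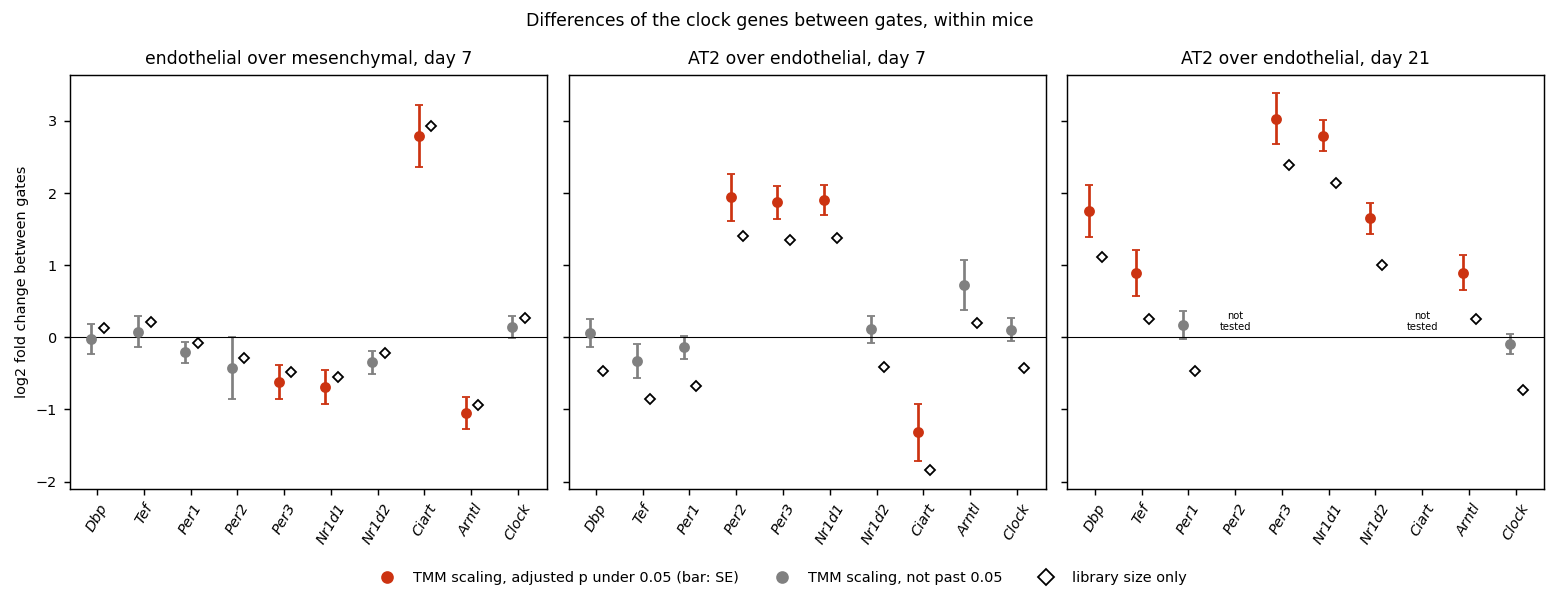
Log2 fold of each gene between cell classes of the same mice by edgeR, for endothelial over mesenchymal cells at day 7 and AT2 over endothelial cells at days 7 and 21; circles with standard errors are TMM scaling, red where adjusted p was under 0.05, and open diamonds are plain library size. The mark of Ciart rests on 7 UMIs in mesenchymal and 14 UMIs in AT2 cells at day 7. Those of Per3 and Dbp at day 21 rest on 16 and 25 UMIs in endothelial cells. Nr1d1 is higher in AT2 than in endothelial cells at both days, and Per3 at day 7. The diamonds of AT2 over endothelial cells lie lower, by 0.53 at day 7 and 0.63 at day 21 for the median gene.

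The rest of the clock pathway was given by a list of 25 genes that are not members, tested between libraries over the mice. In endothelial cells at day 7, 19 of them could be tested, and edgeR's quasi-likelihood test with Benjamini-Hochberg adjustment called 3 higher and 0 lower in LPS-treated β1 AT2-KO than in β1 fl/fl mice, where 2.09% of 11668 genes were called. Cry2, a core repressor, read 13.3 to 21.3 against 6.87 to 8.78 CPM (log2 fold 1.13, SE 0.22, adjusted p = 0.0228). Bhlhe40, a repressor that binds E-boxes, read 106 to 183 against 67.7 to 77.9 CPM (1.03, adjusted p = 0.0074), and Tspan4 read 124 to 189 against 82.6 to 92.0 CPM (0.76, adjusted p = 0.0295). The groups did not overlap for any of the 3, but none was called without β1 fl/fl mouse 2, when 72 genes of all were called in place of 244. Cry2 also lost its call without mouse 1 or mouse 2 of the LPS-treated β1 AT2-KO library or without β1 fl/fl mouse 3, and Tspan4 without β1 AT2-KO mouse 2 or without β1 fl/fl mouse 1 or mouse 3. The median over the 19 genes was 0.31, and over all genes 0.005.

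The other gates gave few calls in this list. At day 7 edgeR called 0 of 10 in mesenchymal cells (2 at an unadjusted p under 0.05, 0 with DESeq2), where 0.102% of genes were called, and 0 of 13 in AT2 cells (4 unadjusted, 0 with DESeq2), where 1.86% were. At day 21 it called 0 of 12 in endothelial cells (0 unadjusted, 0 with DESeq2), where 1.78% were, and in AT2 cells Bhlhe40 alone (0.57, adjusted p = 0.0497), where 3.75% were, a call that was lost in 8 of 11 alternatives. Between LPS and PBS in β1 AT2-KO endothelial cells at day 7, where 26.8% of genes were called, Bhlhe40 (1.66), the cell cycle kinase gene Wee1 (1.93), the deadenylase gene Noct (1.29) and Btrc (0.31) were higher. Tsc22d3, a glucocorticoid-induced gene, was lower (-1.11, 215 to 288 against 387 to 653 CPM), as were Nampt (-0.55), Csnk1e (-0.41) and Bhlhe41 (-1.20), 8 of the 19 genes in all. Btrc and Bhlhe41 each lost the call in 5 of 14 alternatives, DESeq2 among them, which called 6 of the listed genes.

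Between classes, where 53.4% of all genes (endothelial over mesenchymal) and 59.8% (AT2 over endothelial) were called at day 7, many of the listed genes were called too. At day 7 endothelial cells had less of 12 of 22 tested genes than mesenchymal cells by edgeR, among them Npas2, a relative of CLOCK (0 to 0.414 against 8.82 to 37.6 CPM), the BMAL1 relative Arntl2 (0 to 1.24 against 0 to 12.5 CPM), Hlf (log2 fold -3.13), the third PAR bZIP gene, and Nfil3 (-3.40), which opposes these factors on D-boxes, and more of 3 (Btrc, Timeless and Nampt). Npas2 and Arntl2 had 4 and 9 UMIs in endothelial cells and Timeless 8 in mesenchymal cells, so no fold is given. AT2 cells had more of 7 of 18 genes than endothelial cells, among them Cry2 (2.99), Nfil3 (2.78) and Npas2 (1.19 to 24.7 against 0 to 0.202 CPM), and less of 7, among them Timeless (0 to 8.90 against 34.7 to 50.1 CPM). Npas2 had 2 UMIs in endothelial and Timeless 6 in AT2 cells. Genes so low in 1 class passed the filter only through the other, so nothing is read from these counts.

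Genes that respond to handling and hormones were counted beside these results. In endothelial cells at day 7, where 2.09% of all genes were called between LPS-treated β1 AT2-KO and β1 fl/fl mice, edgeR called 1 of 10 glucocorticoid-induced genes (Mt1) higher, with 4 at an unadjusted p under 0.05. It called 1 of 12 immediate early genes (Nr4a1) higher, with 9 at an unadjusted p under 0.05 and a median log2 fold of 0.56. Of the heat shock and cold-inducible genes it called 0 of 8, with 3 at an unadjusted p under 0.05. Between LPS and PBS in β1 AT2-KO endothelial cells, where 26.8% of all genes were called, it called 1 immediate early gene higher and 5 lower of 12, 2 glucocorticoid-induced genes higher and 3 lower of 10, and 3 of 8 heat shock and cold-inducible genes. In AT2 cells at day 7, where 1.86% of all genes were called, 4 of the 8 heat shock and cold-inducible genes, the immediate early gene Jun and 1 of 6 glucocorticoid-induced genes (Zbtb16) were called lower. In mesenchymal cells at day 7, where 0.102% of all genes were called, edgeR called 0 of 8 heat shock and cold-inducible genes. Their median log2 fold was -0.73, with 5 at an unadjusted p under 0.05. It also called 0 of 12 immediate early genes (2 unadjusted) and 0 of 9 glucocorticoid-induced genes (3 unadjusted). At day 21, 8 of 12 immediate early genes were called lower in endothelial cells of β1 AT2-KO mice, where 1.78% of all genes were called, and 5 of 12 (Fos, Junb, Egr1, Atf3 and Ier3) higher in their AT2 cells, where 3.75% were. Of the glucocorticoid-induced genes at day 21, Sgk1 was called lower in endothelial cells (1 of 5) and Errfi1 higher in AT2 cells (1 of 8). In endothelial cells the 8 AT2 markers summed to 977 to 18221 CPM over the libraries and the 2 club cell markers to 390 to 1730 CPM, and all 8 AT2 markers were detected. The part of these in the differences between libraries was not tested.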

How the data were processed

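The counts of each library were deposited by the authors as filtered barcodes by genes and hashtags, made with Cell Ranger 3.1 on mm10, without normalization and before their removal of free RNA and doublets; Seurat 4.1.0 is named in the submitters' processing notes. The deposited lists of barcodes and gene names came with them and hold no other value. A barcode was used where it had 700 or more detected genes and a mitochondrial share of UMIs of 0.1% to 15%. AT2 cells had at least 5% of UMIs from Sftpc, at least 1 Epcam UMI and no Cdh5, Pecam1 or Col1a2 UMI. Endothelial cells had at least 2 UMIs of Cdh5 and Pecam1 and none of Epcam or Col1a2, and mesenchymal cells at least 2 UMIs of Col1a2 and none of the other 3 genes. A mouse was assigned where 1 hashtag alone reached 4 times its background. Mouse numbers name hashtags, and gates were paired by hashtag. Cells of β1 fl/fl hashtag 1 at day 21 carried RNA of both sexes and may not come from a single animal.

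UMIs were summed per library, mouse and gate and given per 1000000 UMIs (CPM); sums of under 20 cells were left out of means and fits. Library ratios had 0.5 UMIs added to each count, and exact Poisson or Clopper-Pearson 95% intervals cover counting error only. Ratios for the alternatives used 1 CPM. A count of 0 was bounded by 3 UMIs. Nearest profiles used log2(CPM + 5). Gate differences and library differences of other clock genes were tested with edgeR 4.0.16 (R 4.3.3; quasi-likelihood, TMM, filterByExpr, adjusted p under 0.05), with DESeq2 1.42.0 as an alternative. On simulated counts with 200 changed genes, 158 were recovered with 8 false calls for endothelial against mesenchymal cells at day 7, and 143 with 3 false calls for the genotypes in endothelial cells at day 7. At day 21 they were 156 with 7 for AT2 against endothelial cells, and 115 with 8 for the genotypes in endothelial cells. Of 100 changes of 1 log2 unit, 60, 45, 67 and 25 were recovered in this order. The simulated spread was fixed and the changed genes were not drawn from the lowest counts. The runs therefore do not cover the spread between mice or the low counts seen here. Doublets were not called. Promoter sequences were RefSeq's.

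The members, gene lists and tests were chosen with earlier results of these data known. All 10 members and the 25 listed clock genes could be named. Alternatives were other scalings, filters, hashtag rules, free RNA, cells with most UMIs, the block, and each mouse left out.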

Additional observations from a re-analysis of the deposited data

Results flagged for a closer look

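In 6 cases every β1 AT2-KO mouse lay on one side of every β1 fl/fl mouse in one setting and on the other side in another, for genes of the clock list that are not members. The differences between the settings were not tested, and those in AT2 cells at day 7 rest on 2 β1 fl/fl mice. Such a pattern held for 3.02% of the 5703 genes tested in both AT2 and endothelial cells at day 7, for 1.95% of 6462 genes at day 21, and for 2.00% of 5962 genes in AT2 cells at both days. Nfil3 at day 7 was among those genes; in the other cases the gene was below the filter on low counts in at least 1 of the settings, so these shares do not cover it. Cry1, a core repressor, had a log2 fold (β1 AT2-KO over β1 fl/fl, LPS) of -1.43 in AT2 cells at day 7, from 12 and 12 UMIs, against 0.77 in AT2 cells at day 21 and 0.52 in endothelial cells at day 7. Bhlhe41, a repressor, had -2.55 in AT2 cells at day 7, from 1 and 3 UMIs, against 0.74 in endothelial cells. Nfil3, the antagonist of the PAR bZIP factors, had 0.92 in AT2 and -0.71 in endothelial cells at day 7, and 0.73 and -0.94 at day 21, the latter from 8 and 22 UMIs. Usp2, a clock output gene, had 1.31 in AT2 and -2.18 in endothelial cells at day 21, from 11 and 0 and from 0 and 6 UMIs.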

How the results depend on the processing

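Of the alternatives to the members' library ratios, 822 stayed within the spread between mice, 39 moved beyond it and 9 changed sign. Of those to the gate folds, 448 kept direction and call, 22 lost a call, 10 gained one and 4 changed sign, all 4 by library size (Dbp -0.46, Nr1d2 -0.41 and Clock -0.42 at day 7 and Per1 -0.47 at day 21, AT2 over endothelial). Cells with a single hashtag only, an alternative chosen after seeing the data, gave a member median of 0.69 in AT2 cells at day 7 (1.11 over all cells), and a median of -0.52 (0.27) and a Per1 ratio of 0.0196 (-0.66) in mesenchymal cells at day 21. The same cells with each mouse weighted equally gave 0.62, -0.53 and 0.023. The values without each mouse also use cells with a single hashtag only, and so are to be read against those values. Leaving out each mouse gave, for β1 AT2-KO over β1 fl/fl in AT2 cells at day 7, a median of 0.11 to 1.09, Per2 of -0.33 to 0.85, Nr1d2 of -0.0065 to 0.65 and Ciart of -0.25 to 3.01. It gave Per1 of -0.067 to 0.25 in endothelial cells at day 7, Ciart of -0.19 to 0.42 for LPS over PBS, and Per1 of -0.042 to 0.091 and Per3 of -0.27 to 2.04 in mesenchymal cells at day 21, where the β1 AT2-KO side was 1 mouse and only β1 fl/fl mice were left out.

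Without the replicate block, with library as covariate, 2 members were called between endothelial and mesenchymal cells at day 7 (4 with the block) and 1 between AT2 and mesenchymal cells (3 with it); DESeq2 gave the same 2 counts. By library size 9 members were called for AT2 over endothelial at day 7 (4 by TMM) and 3 for AT2 over mesenchymal at day 21 (1 by TMM). Leaving out each mouse gave 2 to 5 members for endothelial over mesenchymal at day 7, 2 without mouse 2 of the LPS-treated β1 AT2-KO library, and 0 to 1 at day 21, 1 without β1 fl/fl mouse 3. Genes called for AT2 over mesenchymal at day 21 were 2430, and 1593 with DESeq2.

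Counts of genes called between genotypes were less stable. In endothelial cells at day 7 they were 244, 368 without a filter, and 72 (without β1 fl/fl mouse 2) to 321 with each mouse left out, with 0 to 3 other clock genes. In mesenchymal cells they were 6, 13 with DESeq2, 195 without a filter (1 other clock gene) and 3 to 30. In AT2 cells at day 7 they were 111, 43 with DESeq2, 70 with another hashtag rule and 37 to 148, with 0 to 1 other clock genes. In endothelial cells at day 21 they were 129, 68 with DESeq2, 319 without a filter and 42 (without β1 AT2-KO mouse 2) to 179. In AT2 cells at day 21 they were 330 and 193 to 314, and other clock genes 1, or 0 with DESeq2, its size factors, the other hashtag rule or some mice left out. The causes were not tested. Depth limits the PBS library's AT2 and mesenchymal gates, the β1 fl/fl AT2 gate at day 7 and the gates at day 21, where a member may rest on under 20 UMIs.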
